A study of Mus musculus with 18 samples.

Results

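The genes followed here were those whose products turn diethylnitrosamine (DEN) into a DNA-damaging agent, or are close relatives of such enzymes, together with a gene that repairs part of the damage. They were the cytochrome P450 gene Cyp2e1, the 4 mouse Cyp2a genes Cyp2a4, Cyp2a5, Cyp2a12 and Cyp2a22, and the repair gene Mgmt, which were picked by their symbols and made up 6 of the 54838 genes in the RNA-seq table. All 6 were found, and all 6 passed the filter on low values in every comparison below. They were read in 18 samples from C57BL/6 mice aged 36 weeks, in 6 groups of 3. Wild-type (WT) mice and mice lacking miR-181ab1 in all tissues (GKO) gave untreated normal livers, non-tumour livers and liver tumours. Mice of the last 2 tissues had received 25 mg/kg DEN by a lone intraperitoneal injection at postnatal day 12, and normal livers came from mice given none, so the values are those of adult livers and established tumours and not of the pup liver that met DEN. The study's methods describe DEN-treated pups as male and its WT controls as littermates that could carry a floxed allele or a Cre transgene alone. The labels do not tie a tumour to the non-tumour liver of the same mouse.

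DEN is not reactive by itself. Cytochrome P450 enzymes in hepatocytes hydroxylate it next to the nitroso group, after which it breaks down to acetaldehyde and an ethylating species that attacks DNA. CYP2E1 is the main enzyme known for this step, CYP2A5 also accepts nitrosamines and coumarin, CYP2A4 is a closely related steroid hydroxylase, and CYP2A12 is a steroid hydroxylase as well. MGMT takes alkyl groups off guanine in DNA and is used up in doing so. In normal liver Cyp2e1 and Cyp2a5 are best known from hepatocytes around the central vein, the zone maintained by Wnt signals, and Cyp2a4 is known as a gene with higher levels in female than in male liver.

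The 6 genes lie on chromosome 7 (mm10, positions from GENCODE mouse release 21). Cyp2a4 is at chr7:26307169-26315088 on the + strand, Cyp2a5 at chr7:26835305-26843548 on the + strand, Cyp2a22 at chr7:26931631-26939384 on the - strand and Cyp2a12 at chr7:27029081-27037375 on the + strand, within a cluster of Cyp2 genes. Mgmt is at chr7:136894614-137130266 on the + strand and Cyp2e1 at chr7:140763739-140774987 on the + strand, both far from that cluster. The coding sequences of Cyp2a4 and Cyp2a5 were 98.4% identical over 1482 bases, with 23 mismatches, and those of Cyp2a12 and Cyp2a22 were 97.0% identical. Reads could therefore be hard to assign within each pair. Of all stretches of 100 bases in the Cyp2a4 transcript, 11.2% also occurred in Cyp2a5, and 8.08% of those of Cyp2a5 occurred in Cyp2a4. The pseudogene Cyp2a21-ps held 6.09% of those of Cyp2a5 and 2.81% of those of Cyp2a4. With any other gene the shared part of Cyp2a5 was 12.1%. For Cyp2a12 and Cyp2a22 the shared part was 3.97% and 3.98%, for Cyp2e1 it was 1.16% with any other gene, and for Mgmt it was 0. How the authors' counting treated reads that fit several genes is not given in the sources used here, so the split within each pair is uncertain to that extent.

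The start of each gene is shown because Cyp2a4 and Cyp2a5 differed widely in their RNA levels while their promoters are nearly alike. RefSeq promoter windows of 300 bases (GRCm38.p6, 250 before and 50 after the start) were found for all 6 genes, and those of Cyp2a4 and Cyp2a5 were 97.7% identical, against 84.2% for Cyp2a12 and Cyp2a22. In the 5 P450 genes the windows held the letters TATAAA on the gene's strand, shown in capitals in the 30 bases around them, and the window of Mgmt did not.
Cyp2a4 (chr7:26307152-26307181, + strand): tgtctctggatgTATAAAagcaagctaatt
Cyp2a5 (chr7:26835298-26835327, + strand): tgtctctggatgTATAAAagcaagctaatt
Cyp2a12 (chr7:27029039-27029068, + strand): tgtccctgggagTATAAAggtagtatctca
Cyp2a22 (chr7:26939397-26939426, - strand): tgtccctgggcgTATAAAggtagaatctca
Cyp2e1 (chr7:140763776-140763805, + strand): tcaacgacacgtTATAAAatccttgtttct
The stretch was the same letter for letter in Cyp2a4 and Cyp2a5. Of 32851 promoter windows, 8.32% held TATAAA on the strand of the gene. The letters TTGCATAA, of the kind bound by DBP and C/EBP factors, were searched on both strands and found in Cyp2a4 and Cyp2a5 but in none of the other 4 windows, and 0.743% of all windows held them.
Cyp2a4 (chr7:26307111-26307140, + strand): aggtgaaatagTTGCATAAtcaagaccaaa
Cyp2a5 (chr7:26835257-26835286, + strand): aggtgaaatagTTGCATAAtcaagaccaaa
These 30 bases were again identical. A match describes letters and not a bound site, and the RefSeq starts used here are not the outer gene bounds given above.

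The table gave TPM, that is, reads per base of gene length scaled to a total of 1000000 in each sample, so levels can be compared between genes as well as samples. Reads recovered from it numbered 11925060 to 20751391 per sample, with a median of 16973783. Replicates of a group correlated with r from 0.919 to 0.982 over genes, and no pair agreed within sampling noise. Mir181b-1 was listed at 0 in 18 of 18 samples and Mir181a-1 in 17, with 1 recovered read in GKO tumour 3, so these short genes gave no check of the genotype labels. The 10 hepatocyte markers were present in every sample. Their summed level was 193789 to 220328 TPM in tumours and 69667 to 105891 TPM in non-tumour livers, with Alb, which encodes albumin, at 83554 to 139816 against 23909.6 to 41169 TPM. Summed markers of macrophages (8 genes) were 32.1 to 122 TPM in tumours and 52.7 to 596 TPM in non-tumour livers, those of fibroblasts and stellate cells (10 genes) 54.5 to 193 and 45.0 to 79.2 TPM, those of endothelial cells (8 genes) 61.0 to 97.1 and 36.5 to 78.3 TPM, and those of cholangiocytes (6 genes) 22.2 to 959 and 30.2 to 76.9 TPM. T cell markers (7 genes) summed to at most 14.2 TPM and B cell markers (5 genes) to at most 24.3 TPM in any sample. In these bulk samples fewer cells of a type and less RNA per cell cannot be told apart, and the part of cell composition in the results below was not tested.

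Cyp2e1 was among the most abundant RNAs of every liver without tumour and was lower in every tumour. It measured 4856, 6669.5 and 4744 TPM in the 3 WT normal livers and 4039.8, 5752 and 6471 TPM in the GKO normal livers. In non-tumour livers it measured 6199.8, 8049 and 8350.4 TPM in WT and 9357, 3056 and 6045 TPM in GKO. In tumours the values were 259, 324 and 134 TPM in WT and 18.8, 1446 and 405 TPM in GKO. The 12 livers without tumour thus formed a band that no tumour reached, and the values of the GKO tumours spanned a wider range than those of the WT tumours. The mean was highest in WT non-tumour livers (7533 ± 1164 TPM, SD, n = 3), followed by GKO non-tumour, WT normal and GKO normal livers (5421 ± 1249) and then by GKO tumours (623 ± 738) and WT tumours (239 ± 96.4), and the step between GKO normal livers and GKO tumours was the only one of neighbouring groups that did not overlap. By rank of TPM within a sample Cyp2e1 stood at 20 to 28 in normal livers, 15 to 37 in non-tumour livers and 69 to 3379 in tumours.

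Between the 6 tumours and the 6 non-tumour livers Cyp2e1 fell by 4.84 on the log2(TPM + 1) scale (SE 0.79, adjusted p = 0.00173), a 28.6-fold difference. In this comparison 2 of the 6 genes were called at an adjusted p under 0.05, Cyp2e1 lower and Cyp2a4 higher, where 20.1% of all 14106 genes tested were called. Of the 10 hepatocyte markers 3 were called higher and 0 lower in the same comparison, and while their summed TPM was higher in every tumour, the mean of their log2 levels overlapped (11.72 to 12.10 in tumours, 10.99 to 11.77 in non-tumour livers). The macrophage markers gave 0 higher and 4 lower, the fibroblast and stellate cell markers 4 higher and 2 lower, the 7 tested endothelial markers 3 higher and 0 lower, and T cell, B cell and cholangiocyte markers none. Within WT, Cyp2e1 fell by 5.05 (SE 0.37, adjusted p = 0.00149), and again Cyp2e1 and Cyp2a4 were called among the 6, against 4.23% of all genes. Within GKO the difference was of like size, -4.62 (SE 1.40), but it did not pass the test (adjusted p = 0.0733). The groups did not overlap, though how many of all genes separate in this way was not counted. Of the 6 genes Cyp2a4 alone was called within GKO, against 11.7% of all genes. Without GKO tumour 2, the highest at 1446 TPM, the difference was -5.96 and passed (adjusted p = 0.0310). With the spread of all 18 samples in the fit the difference within GKO passed as well (adjusted p = 0.00639). Without GKO tumour 1, the lowest, the difference within GKO was -2.86 (adjusted p = 0.0508). The median of all genes was 0.20 within GKO. The tumour effect in GKO minus that in WT was 0.43 (95% interval -3.19 to 4.05).

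**Figure D1:**
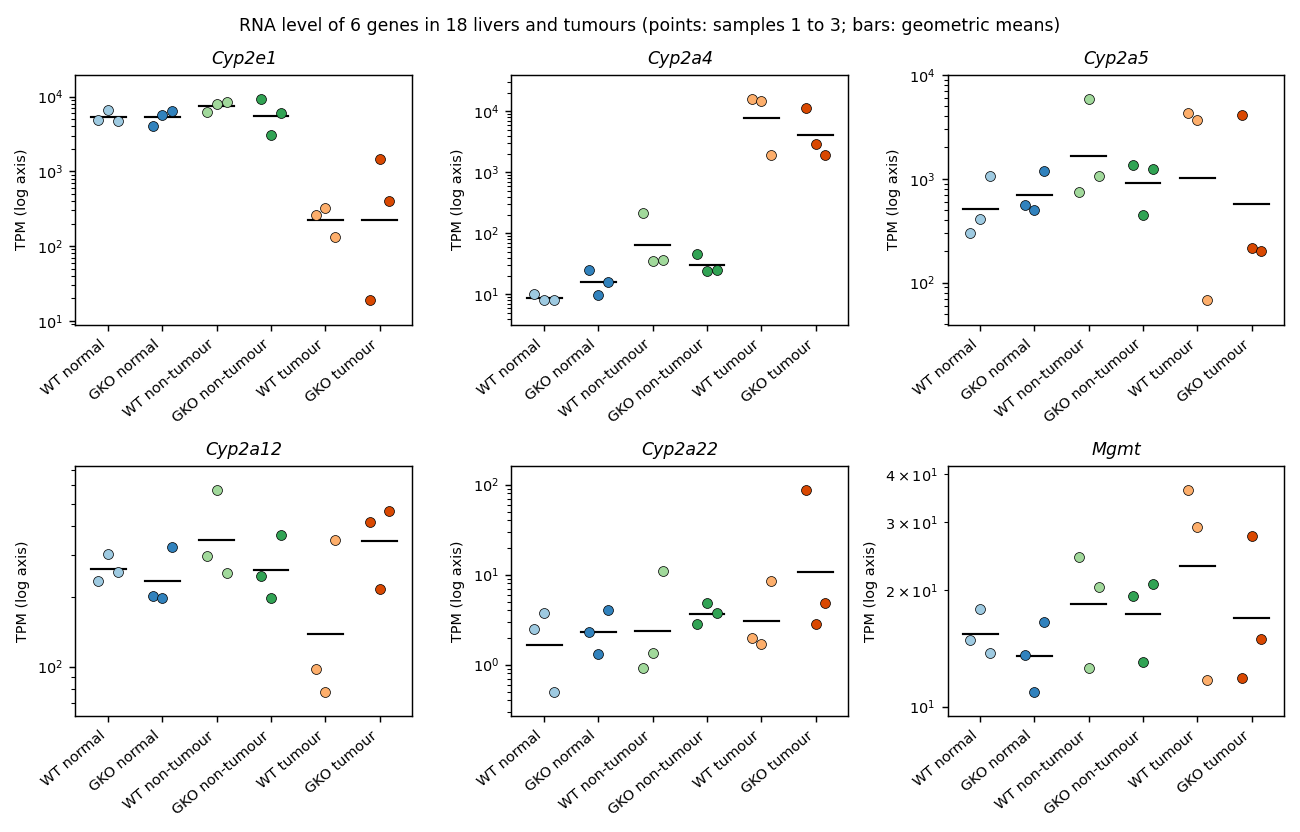
TPM (log axis) of the 6 genes in the 18 samples, with 1 point per sample in the order of samples 1 to 3 and a bar at the geometric mean of each group. Cyp2e1 lay at 3056 TPM or above in every liver without tumour and at 1446 TPM or below in every tumour, Cyp2a4 at 215 TPM or below and 1905 TPM or above, and the other 4 genes overlapped.

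Cyp2a4 differed in the opposite direction between tumours and livers without tumour, and by more. It measured 10.2, 8.09 and 7.99 TPM in WT normal livers and 25.1, 9.64 and 16.0 TPM in GKO normal livers. In non-tumour livers it measured 215, 35.5 and 36.8 TPM in WT and 45.3, 24.4 and 25.5 TPM in GKO. In tumours it reached 16013, 14621 and 1905 TPM in WT and 11422, 2899 and 1942 TPM in GKO. Every tumour was above every liver without tumour. The tumours themselves fell into 3 with 11422 TPM or more, namely WT tumours 1 and 2 and GKO tumour 1, and 3 with 2899 TPM or less. Group means were 10846 ± 7774 TPM in WT and 5421 ± 5219 TPM in GKO tumours (SD, n = 3). They were 95.8 ± 103 and 31.8 ± 11.8 TPM in WT and GKO non-tumour livers. In GKO and WT normal livers they were 16.9 ± 7.79 and 8.75 ± 1.23 TPM. Among neighbouring groups in this order, again only tumours and livers did not overlap. Further apart, WT non-tumour livers (35.5 to 215 TPM) lay above both normal groups. GKO non-tumour livers (24.4 to 45.3 TPM) lay above WT normal livers (7.99 to 10.2 TPM). How many of all genes separate in this way, 3 samples against 3, was not counted, so these ranges are a description. Cyp2a4 was not called between non-tumour and normal livers (adjusted p = 0.0983 by limma). Its rank by TPM was 2467 to 4751 in normal livers, 504 to 2417 in non-tumour livers and 7 to 57 in tumours.

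Between tumours and non-tumour livers Cyp2a4 was 121-fold higher, a log2 fold change of 6.91 (SE 0.64, adjusted p = 4.06e-05). This was also called within GKO, at 6.99 (SE 0.64, adjusted p = 0.00406), and within WT, at 6.84 (SE 1.02, adjusted p = 0.0170). The call within WT was lost, with a log2 fold change still from 6.30 to 6.43, without WT tumour 1 (adjusted p = 0.0710), without WT tumour 2 (adjusted p = 0.0774) and without WT non-tumour liver 3 (adjusted p = 0.0705). It was also lost, at the same fold change as with all samples, with no filter on low values (adjusted p = 0.0516). The tumour effect in GKO minus that in WT was 0.15 (95% interval -2.75 to 3.06). Of the 6 genes 0 were called in that test of the difference between genotypes, with 1 at an unadjusted p under 0.05 and 0 by voom, against 0.0142% of all genes called.

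Cyp2a5 varied widely within groups, and all neighbouring groups in the order of means overlapped. It measured 304, 409 and 1068 TPM in WT normal livers and 555, 503 and 1198 TPM in GKO normal livers. In non-tumour livers the values were 752, 5896 and 1054 TPM in WT and 1345, 444 and 1254 TPM in GKO. In tumours they were 4316, 3691 and 67.4 TPM in WT and 4152, 215 and 203 TPM in GKO. The same 3 tumours that held most Cyp2a4 had 3691 TPM of Cyp2a5 or more, while the other 3 lay below every liver without tumour. The log2 fold change between tumours and non-tumour livers was -0.69 (95% interval -3.03 to 1.65, adjusted p = 0.682), and it turned to 0.18 without WT tumour 3. The highest value of all 18 came from WT non-tumour liver 2, which stood apart in other genes too: it held 30.1 TPM of Cyp2f2 against 236 TPM or more in the other non-tumour livers, and 159 TPM of Glul against 448 TPM or more.

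Set beside each other, Cyp2a4 and Cyp2a5 changed places. Of the TPM of both genes, Cyp2a4 made up 3.24, 1.94 and 0.743% in the normal livers of WT and 4.33, 1.88 and 1.32% in those of GKO. In non-tumour livers it made up 22.2, 0.599 and 3.37% in WT and 3.26, 5.21 and 2.00% in GKO. In tumours its share was 78.8, 79.8 and 96.6% in WT and 73.3, 93.1 and 90.6% in GKO. Cyp2a5 thus led in all 12 livers without tumour and Cyp2a4 in all 6 tumours. The share holds the Cyp2a4 values already compared above, so the test that follows is not separate support for the Cyp2a4 difference. The mean share was 79.3 percentage points higher in tumours than in non-tumour livers (two-sided exact permutation test within genotypes, p = 0.005, the smallest its 400 arrangements can give; adjusted p = 0.04 over 8 tests of this pair of measures). In the WT tumours both genes summed to 20329, 18312 and 1973 TPM, and in the GKO tumours to 15574, 3115 and 2145 TPM, against 468 to 5932 TPM in non-tumour livers. On the log2 scale the sum was 2.31 higher in tumours, which did not pass after adjustment (exact permutation p = 0.03, adjusted p = 0.12). The share did not separate non-tumour from normal livers (difference 3.87 percentage points, exact permutation p = 0.27) nor GKO from WT tumours (difference 0.595 points, exact permutation p = 1, where 3 against 3 cannot go below 0.1). The tumours formed 2 separate clusters in both genes, made up of the same samples, and across the 12 livers without tumour the log2 levels of Cyp2a4 and Cyp2a5 had r = 0.32 and rho = 0.49, given as a description since reads of the 2 genes may not be fully separable.

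**Figure D2:**
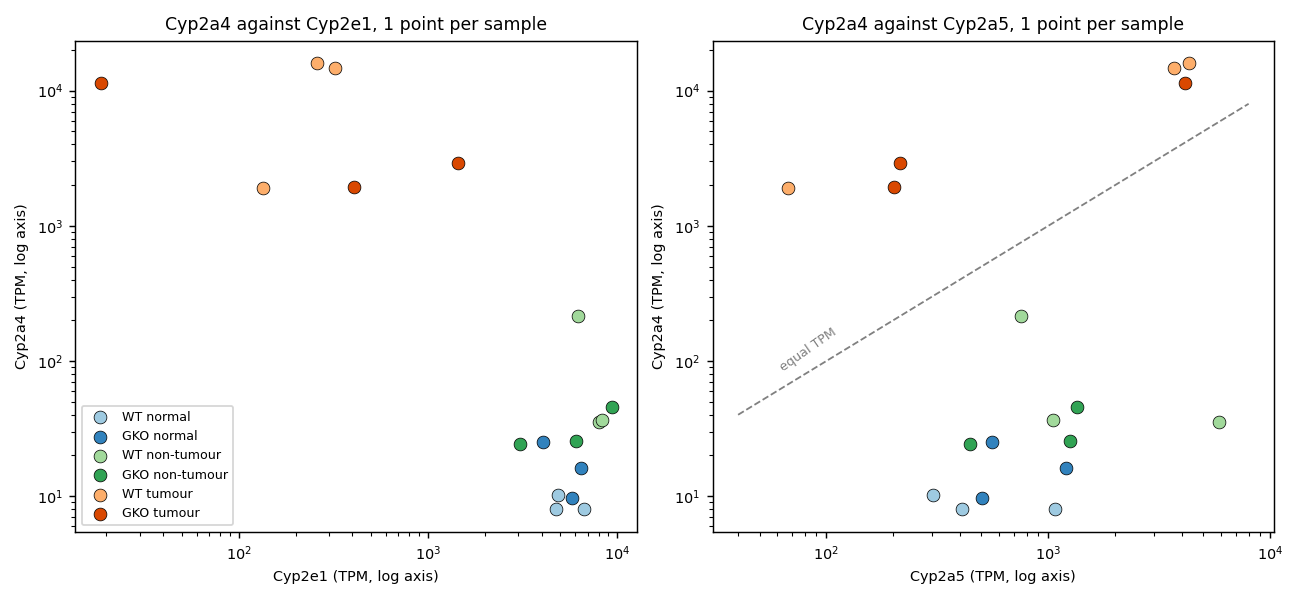
TPM of Cyp2a4 against Cyp2e1 (left) and against Cyp2a5 (right), both axes on a log scale, 1 point per sample coloured by group, with a dashed line where Cyp2a4 and Cyp2a5 are equal. All 6 tumours lie above that line, with Cyp2a4 making up 73.3% or more of the pair, and all 12 livers without tumour lie below it, at 22.2% or less.

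Cyp2a12 ranged over 196 to 573 TPM outside tumours. It measured 234, 303 and 255 TPM in WT normal livers, 201, 196 and 325 TPM in GKO normal livers, 298, 573 and 254 TPM in WT non-tumour livers and 244, 198 and 368 TPM in GKO non-tumour livers. In tumours it measured 97.7, 78.1 and 350.2 TPM in WT and 416, 215 and 466 TPM in GKO. WT tumours 1 and 2 lay below every other sample, while WT tumour 3 and the GKO tumours lay within the range of the livers. Over both genotypes the log2 fold change was -0.46 (95% interval -1.43 to 0.51, adjusted p = 0.490), with -1.33 in WT (adjusted p = 0.289) and 0.41 in GKO (adjusted p = 0.479). Without WT tumour 3 the value in WT was -1.99 and passed (adjusted p = 0.0352). The difference of the tumour effect between genotypes was 1.74 (95% interval 0.042 to 3.43) and did not pass the adjusted test (adjusted p = 0.475).

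Cyp2a22 was a rare RNA in nearly every sample. It measured 2.48, 3.76 and 0.501 TPM in WT normal livers, 2.31, 1.30 and 4.06 TPM in GKO normal livers, 0.919, 1.35 and 10.9 TPM in WT non-tumour livers, 2.82, 4.82 and 3.71 TPM in GKO non-tumour livers and 2.00, 1.70 and 8.48 TPM in WT tumours. In GKO tumours it measured 87.1, 2.84 and 4.81 TPM. GKO tumour 1 stood alone, and it was also the tumour with the lowest Cyp2e1. The tumour against non-tumour log2 fold change of 0.79 (95% interval -0.81 to 2.39, adjusted p = 0.471) was 0.098 without that tumour.

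Mgmt, the repair gene, stayed between 10.9 and 36.4 TPM throughout. It measured 14.9, 17.9 and 13.8 TPM in WT normal livers, 13.6, 10.9 and 16.5 TPM in GKO normal livers, 24.4, 12.6 and 20.4 TPM in WT non-tumour livers and 19.3, 13.1 and 20.8 TPM in GKO non-tumour livers. In tumours it measured 36.4, 29.2 and 11.7 TPM in WT and 11.9, 27.6 and 14.9 TPM in GKO. All 6 groups overlapped, and WT tumours 1 and 2 and GKO tumour 2 gave the 3 highest values. The log2 fold change between tumours and non-tumour livers was 0.14 (95% interval -0.50 to 0.79, adjusted p = 0.759), and its sign turned without WT tumour 1 (-0.013).

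Non-tumour livers of DEN-treated mice were then compared with untreated normal livers. None of the 6 genes was called by limma (0 of 6, with 1 at an unadjusted p under 0.05 and 0 by voom), against 0.4% of all genes. Cyp2a4 had the largest difference of the 6, running from 24.4 to 215 TPM with a median of 36.1 in non-tumour livers and from 7.99 to 25.1 TPM with a median of 9.90 in normal livers. Its log2 fold change was 1.85 (95% interval 0.81 to 2.88, adjusted p = 0.0983), and the ranges overlapped in GKO normal liver 1 alone. Without GKO non-tumour liver 2, the lowest of the non-tumour livers at 24.4 TPM, it was 2.02 and passed (adjusted p = 0.0448). Under every other alternative Cyp2a4 stayed uncalled in this comparison. Cyp2a5 differed by 1.05 (adjusted p = 0.280) and by 0.57 without WT non-tumour liver 2. The values of the other members were 0.27 for Cyp2e1 (95% interval -0.27 to 0.81), 0.29 for Cyp2a12 (-0.21 to 0.79), 0.43 for Cyp2a22 (-0.50 to 1.35) and 0.29 for Mgmt (-0.097 to 0.68), where the median of all genes was 0.21. The non-tumour livers of this comparison are the same samples that served as controls of the tumours.

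None of the 6 genes passed the threshold between GKO and WT samples of any tissue. Over the 12 livers without tumour 0 of 6 were called by limma (0 also at an unadjusted p under 0.05 and by voom), against 0% of all genes. In log2 units the GKO minus WT difference was -0.22 for Cyp2e1 (95% interval -0.76 to 0.32), -0.15 for Cyp2a4 (-1.19 to 0.89), -0.22 for Cyp2a5 (-1.39 to 0.96), -0.29 for Cyp2a12 (-0.79 to 0.21), 0.27 for Cyp2a22 (-0.65 to 1.19) and -0.13 for Mgmt (-0.52 to 0.26). The interval of Cyp2e1 thus left room for a change of less than 2-fold in either direction at this number of samples. In normal livers alone the counts were 0 called and 1, Cyp2a4, at an unadjusted p under 0.05, against 0% of all genes called, and the Cyp2a4 value was 0.79 (95% interval 0.054 to 1.53, adjusted p = 0.999). In non-tumour livers alone 0 were called and 0 had an unadjusted p under 0.05, against 0% of all genes called. Cyp2a4 there pointed the other way, at -1.09 (adjusted p = 0.644), so the genotype effect in non-tumour minus that in normal livers was tested: it was -1.88 (95% interval -3.69 to -0.057) and did not pass (adjusted p = 0.724, with 0 of 6 called, 1 at an unadjusted p under 0.05, and 0% of all genes called).

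Between GKO and WT tumours 0 of the 6 genes were called by limma (0 also at an unadjusted p under 0.05 and by voom), against 0.0215% of all genes. The tumours of a genotype were widely spread and the intervals were broad. The log2 difference was 0.0090 for Cyp2e1 (95% interval -3.37 to 3.39), -0.93 for Cyp2a4 (-3.25 to 1.39), -0.86 for Cyp2a5 (-5.22 to 3.50), 1.31 for Cyp2a12 (-0.11 to 2.73), 1.56 for Cyp2a22 (-1.21 to 4.33) and -0.43 for Mgmt (-1.56 to 0.70). For Cyp2e1, Cyp2a4, Cyp2a5 and Cyp2a22 these intervals hold differences of more than 2-fold in either direction, which 3 tumours against 3 could not show. In Cyp2a4 and Cyp2a5 the 3 high tumours were 2 of WT and 1 of GKO.

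**Figure D3:**
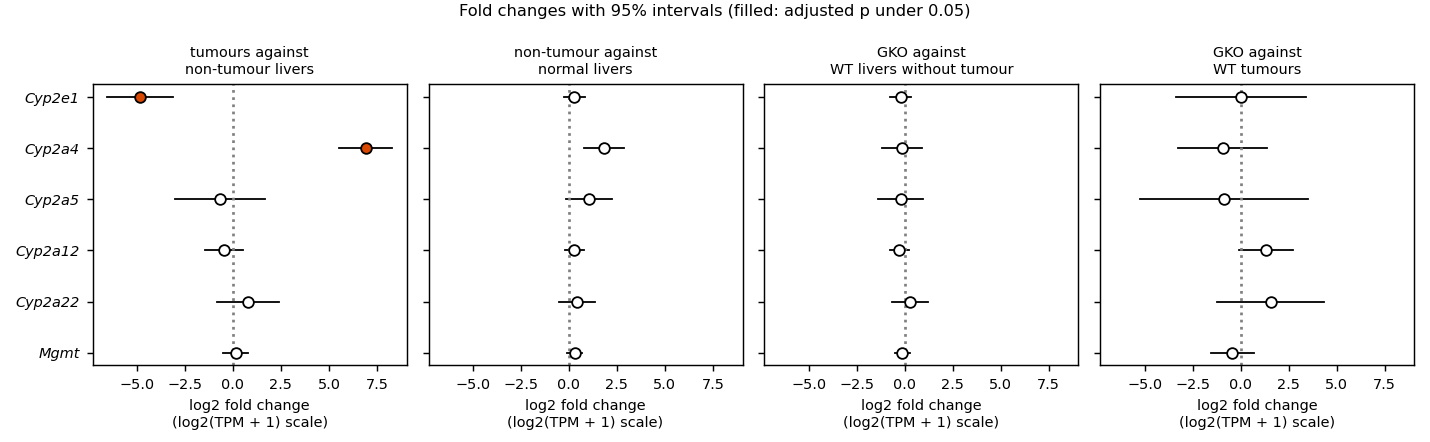
Log2 fold changes of the 6 genes in 4 comparisons on the log2(TPM + 1) scale, as points with 95% intervals from limma, filled where the adjusted p was under 0.05. The 2 filled points are Cyp2e1 at -4.84 and Cyp2a4 at 6.91 in tumours against non-tumour livers.

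The genes that serve the same reaction, or are known to travel with these enzymes, were read in the same tumour against non-tumour comparison, where 20.1% of all genes were called and the median of all genes was 0.082. Among 4 electron partners of P450 enzymes 1 was called, Cyb5a, which encodes cytochrome b5 and fell by 1.15, with 544 to 875 TPM in tumours and 1116 to 2256 TPM in non-tumour livers. Of 11 genes of haem synthesis and breakdown 5 were lower and 0 higher, with a list median of -0.55. Alad, an early enzyme of haem synthesis, fell by 1.09 and had 115 to 171 TPM in tumours against 257 to 319, and Cpox and Urod, later enzymes of that path, fell by 1.26 and 0.55. Blvrb, a biliverdin reductase, fell by 1.36. Of 6 genes that oxidise alcohols and aldehydes, acetaldehyde among them, 3 were lower and 1 higher: Adh4 had 14.0 to 44.0 against 90.4 to 425 TPM, Aldh1a1 31.1 to 209 against 158 to 987 TPM, and Aldh2, the mitochondrial enzyme that clears acetaldehyde, fell by 0.76. Aldh1b1, a mitochondrial relative of it, was higher by 3.47, at 161 to 714 against 12.9 to 51.2 TPM.

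Among 9 neighbours in the Cyp2 cluster 5 passed the filter, of which 1 rose and 2 fell. Cyp2b9, a female-predominant P450 gene, rose by 3.90, with 40.1 to 319.9 TPM in tumours and 1.17 to 40.4 TPM in non-tumour livers. Cyp2f2, a periportal P450 gene, fell by 2.44, and Cyp2g1 fell by 1.54, with 0 to 0.969 TPM in tumours. Genes of one cluster thus moved in both directions. Of 14 known regulators of Cyp2e1 and Cyp2a5, 1 rose and 3 fell, against a list median of 0.023. The nuclear receptor CAR (Nr1i3) had 0.123 to 9.08 TPM in tumours and 12.8 to 46.4 TPM in non-tumour livers, the aryl hydrocarbon receptor gene Ahr fell by 1.41, PXR (Nr1i2) fell by 0.82, and Ctnnb1, which encodes beta-catenin, rose by 1.29. Of 12 tested genes of alkylation repair other than Mgmt, 4 were higher and 0 lower, with a list median of 0.32. They included Mpg, a glycosylase for alkylated bases, at 0.73, Alkbh2, which reverses base alkylation, at 1.03, and the mismatch repair gene Msh6 at 0.62. Mgmt was not among the genes that rose.

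Most genes of the pericentral list, named for the zone in which Cyp2e1 is normally found, fell as well. Of 14 tested, Cyp2e1 not among them, 11 were lower and 0 higher, with a list median of -2.13. Tbx3 fell by 2.84, Axin2 by 1.70, Cyp27a1 by 2.56 and Nkd1 by 1.22. Axin2 and Nkd1 are feedback genes of Wnt signalling. Glul, which encodes glutamine synthetase, had 6.38 to 209 TPM in tumours and 159 to 1114 TPM in non-tumour livers, and GKO tumour 1, with the lowest Cyp2e1, also had the lowest Glul (6.38 TPM) and Cyp1a2 (2.69 TPM), while GKO tumour 2, with the highest Cyp2e1 among tumours, had the highest of both (209 and 104 TPM). Of 12 periportal genes 2 rose, Cdh1 by 2.84 and Gls2 by 1.34, and 2 fell, Pigr by 2.99 and Cyp2f2, with a median of 0.23. Among 10 male-predominant liver genes 7 fell and 0 rose, with a median of -3.16: Cyp4a12b had 0.0904 to 23.7 TPM in tumours against 17.6 to 139, and Elovl3, Cyp4a12a and Slco1a1 fell by 4.67, 3.28 and 3.30. Of 11 female-predominant genes 6 passed the filter, of which Cyp2b9 and Cyp3a44 rose and Prlr, the prolactin receptor gene, fell by 1.72. Cyp3a44 had 0.635 to 36.6 TPM in tumours and at most 0.374 TPM in non-tumour livers. It passed the filter on low values only through the tumours, so the filter favoured a rise. Of 10 evening clock genes, DBP's own among them, 0 were called in either direction, nor were any of 5 morning clock genes.

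**Figure D4:**
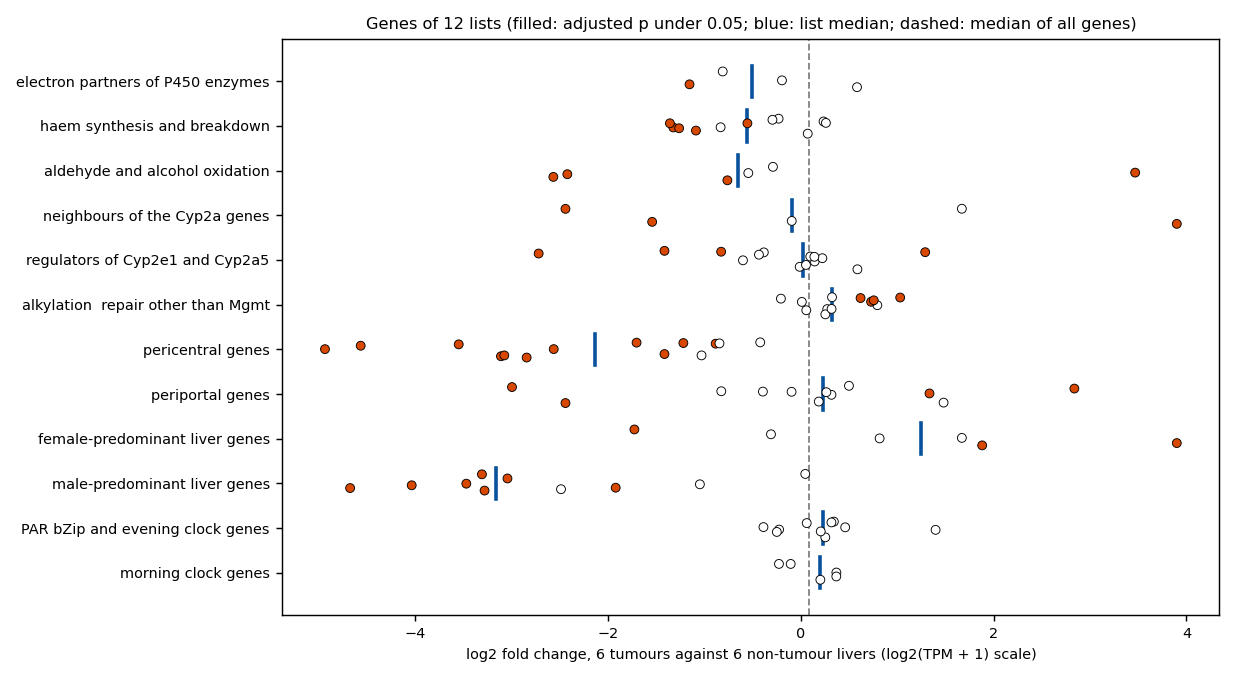
Log2 fold changes in 6 tumours against 6 non-tumour livers for the genes of 12 lists, 1 point per gene, filled where the adjusted p was under 0.05, with the list median in blue and the median of all genes dashed. Filled points of the pericentral and male-predominant lists lie to the left, with medians of -2.13 and -3.16, and neither clock list has a filled point.

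The genes whose levels followed each member most closely over the 18 samples were sought among 6858 genes averaging 5 TPM or more. These values describe samples that share libraries, depth and the tumour contrast, and for Cyp2e1 and Cyp2a4, whose tumours and livers lie in separate clusters, r largely restates that contrast. For Cyp2e1 they were Cyp2c50 (r = 0.967), Cyp1a2 (0.967), Notum (0.963), Glul (0.949) and Ugt2a3 (0.948). Notum, which encodes a secreted Wnt inhibitor, had 0.899 to 9.90 TPM in tumours and 25.2 to 44.1 TPM in non-tumour livers. For Cyp2a4 they were Ppp1r9b (0.976), Rasal1 (0.965), Scd2 (0.965), Pold4 (0.964) and Vnn3 (0.964). Scd2, a fatty acid desaturase gene, had 9.47 to 79.7 TPM in tumours and 0.913 to 2.61 TPM in non-tumour livers, and Vnn3 had 282 to 623 and 74.8 to 135 TPM. For Cyp2a5 they were Gstm2-ps1 (0.888), Gstm1 (0.879), Htatip2 (0.872), Gsta1 (0.860) and Eefsec (0.853). Gstm1 and Gsta1 encode glutathione transferases, and Gstm1 ranged over 466 to 12107 TPM in tumours and 1654 to 13320.2 TPM in non-tumour livers.

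For Cyp2a12 they were Dpys (0.904), Maob (0.889), Stradb (0.880), Crp (0.875) and Suclg2 (0.872). For Cyp2a22 they were Atp2c1 (0.817), Cldn15 (0.798), Desi1 (0.795), Gtf2a2 (0.787) and Rnf145 (0.774). GKO tumour 1 had 87.1 TPM of Cyp2a22 against at most 10.9 TPM elsewhere, so these r values lean on that sample. For Mgmt they included Thyn1 (0.827), Ccnd3 (0.822), Ccng1 (0.764) and Serpina3g (0.753). Within the 12 livers without tumour Cyp2e1 and Cyp2a4 had r = 0.27 and rho = 0.48, Cyp2e1 and Cyp2a5 had r = 0.57 and rho = 0.52, and Cyp2a5 and Cyp2a12 had r = 0.79 and rho = 0.59. The opposite course of Cyp2e1 and Cyp2a4 was thus seen between tumours and livers, and they did not run opposite among the livers.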

How the data were processed

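RNA of 18 mouse samples was sequenced on an Illumina HiSeq instrument. Per the labels and the study's methods, the authors aligned reads to mm10 with STAR 2.7.3a, counted them on genes with featureCounts 2.0.0 and deposited TPM for 54838 genes. The gene annotation and the TPM calculation are not given in the sources used here. TPM times the exonic lengths of GENCODE mouse release 21 (54809 genes matched) gave whole reads, within 0.02, for 98.0% to 98.7% of values under 30 reads, which gave the depths in the text. The log2(TPM + 1) values of genes averaging 0.5 TPM or more were fitted with limma 3.58.1 (R 4.3.3, eBayes with trend) on the groups compared, with genotype or tissue as an additive term where both were pooled. P-values were adjusted by Benjamini-Hochberg over all genes tested and called under 0.05. Fold changes on this scale understate those of low genes. Exact permutation tests and correlations used Python 3.11.15 with scipy 1.17.1. The fitting was tested on simulated data. Alternatives were a pseudocount of 0.1, no filter, median centring, all 18 samples in one fit, a replicate block and leaving out each sample. Voom on the recovered reads, the mean of WT tumours 1 and 2 as 1 sample (the closest pair) and the test of the genotype effect in non-tumour minus normal livers were added after the values were seen.

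Named were the 6 genes, the 5 genes most like each by Pearson r, at most 4 called genes per list with the lowest adjusted p, and the marker lists. The members and lists were chosen with earlier results of these data known. Whether replicate numbers pair samples was not settled. Deviations of same-numbered tumours and non-tumour livers correlated with r from -0.01 to 0.25. Differently numbered ones had r from -0.20 to 0.20. In GKO each tumour correlated most with the non-tumour liver of its own number (r = 0.124, 0.069 and 0.041). Nothing in the labels says that replicates came from separate mice, so p-values measure the spread between these samples. Protein sequences were not used here, and a few genes that the naming rule picks are not reported here.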

Additional observations from a re-analysis of the deposited data

Results flagged for a closer look

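The genotype difference of Cyp2a4 pointed in opposite directions in the 2 kinds of liver without tumour, with every GKO sample on the same side of the WT mean in each. In normal livers the 3 GKO values, 25.1, 9.64 and 16.0 TPM, lay above the WT mean of 8.75 TPM. The groups still overlapped, as WT normal liver 1 at 10.2 TPM lay above GKO normal liver 2 at 9.64 TPM. In non-tumour livers the 3 GKO values, 45.3, 24.4 and 25.5 TPM, lay below the WT mean of 95.8 TPM. That mean was raised by WT non-tumour liver 1. The other WT non-tumour values were 35.5 and 36.8 TPM, below GKO non-tumour liver 1 at 45.3 TPM. The difference between the 2 effects was -1.88 on the log2(TPM + 1) scale (SE 0.83) and did not pass the adjusted test by limma (adjusted p = 0.724). Leaving out 1 replicate gave -2.31 to -1.03, with the value nearest 0 without WT non-tumour liver 1, which had 215 TPM.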

How the results depend on the processing

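Fold changes were followed under the alternatives only for the pairs of gene and comparison whose values the text gives. Of 582 such fold changes of the 6 genes, 548 kept their direction and their side of the threshold. In tumours against non-tumour livers 2 of the 6 genes were called under every alternative tried. In WT tumours against WT non-tumour livers 1 was called in place of 2 with no filter and with WT tumours 1 and 2 averaged, and 1 to 3 without 1 replicate. In the GKO comparison 2 in place of 1 were called with all 18 samples in one fit, and 1 to 2 without 1 replicate; in non-tumour against normal livers it was 0 to 1. The fit of all 18 added samples and degrees of freedom, and its filter on low values used the mean of all 18. For pooled comparisons it also used group means in place of the additive term. What moved the counts was not tested. With the replicate block the members called stayed at 2 in WT, 1 in GKO and 2 over both genotypes, and no call of a member changed. Whether the numbers pair samples is not known. Uncalled values changed sign as follows. Between GKO and WT tumours Cyp2e1 was -0.0086 with a pseudocount of 0.1, -0.047 with median centring, -0.033 by voom and -1.33 to 1.77 without 1 replicate, and Cyp2a5 was 0.12 with WT tumours 1 and 2 averaged and -2.81 to 0.18 without 1 replicate. Between GKO and WT livers without tumour Cyp2a4 ranged over -0.39 to 0.33 and Cyp2a5 over -0.47 to 0.26 without 1 replicate. Between tumours and non-tumour livers Mgmt was -0.00761 by voom and -0.013 to 0.33 without 1 replicate, and Cyp2a5 -1.33 to 0.18. The tumour effect in GKO minus WT of Cyp2a4 was -0.065 with median centring, -0.019 by voom and -0.85 to 0.69 without 1 replicate, and that of Cyp2e1 -0.91 to 2.19. Counts over all genes moved more. In tumours against non-tumour livers they were 2829, and 1867 to 3797 without 1 replicate, the lowest without GKO non-tumour liver 3 and the highest without WT non-tumour liver 2. They were 592, and 297 with no filter, 1533 with all 18 samples, 361 with the block, 185 with the average and 163 to 1363 without 1 replicate, in WT. In GKO they were 1652, 589 with no filter, 2627 with all 18 samples and 229 to 1567 without 1 replicate. For non-tumour against normal livers they were 54, 8 with no filter, 2 with median centring, 14 with the block, 10 by voom and 1 to 738 without 1 replicate. For GKO against WT tumours they were 3, 78 with all 18 samples, 0 under the other alternatives and 0 to 147 without 1 replicate, and for the tumour effect in GKO minus WT 2, 12 with all 18 samples, 0 to 4 under the others and 2 to 91 without 1 replicate. For the added genotype test the count was 0, and 2 with no filter and 0 to 2 without 1 replicate. Of 665 values of 35 named list genes, 601 stayed called and 0 changed sign; Aldh2, Nr1i2 and Cyp3a44 lost their call most often. Without WT non-tumour liver 2, which stood apart, the genes called lower stayed at 11 of the pericentral list and went from 5 to 4 for haem, 3 to 2 for aldehyde oxidation, 3 to 2 for regulators (2 in place of 1 higher) and 7 to 9 for male-predominant genes; with the replicate block haem genes called lower were 3. Depth did not limit the abundant members, whereas Cyp2a22 at about 1 TPM rested on few reads.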

Other observations

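All 6 genes lie on chromosome 7, so the level of that chromosome was read in each tumour. It was taken as the median log2 difference of its genes from the non-tumour livers. The median difference of all genes read in that tumour was first subtracted. In the 6 tumours this median was -0.082 to 0.088. The 141 genes around the Cyp2a cluster had medians of -0.15 to 0.064 and the 89 genes around Cyp2e1 and Mgmt -0.059 to 0.064. Over all autosomes the lowest and highest medians in a tumour were -0.35 and 0.29, both in WT tumour 3. The Cyp2e1 and Cyp2a4 differences of -4.84 and 6.91 were not centred in this way. A change limited to the genes themselves was not tested.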
